A study of Mus musculus with 6 samples.

Results

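Zinc, iron and copper handling genes were followed in colon tumors of mice with and without STING in myeloid cells. The genes were taken by name: every protein-coding gene of the Slc39 (ZIP) and Slc30 (ZnT) families, the metallothioneins Mt1 and Mt2 with their activator Mtf1, and a fixed set of iron, haem and copper genes. This gave 43 of the 54532 genes in the table, of which 39 were expressed above the limit used for testing. The names use no measured value, but the set was proposed when results of this comparison were known, so its counts are a description.

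Tumors were induced with AOM (azoxymethane, a colon carcinogen) and 3 cycles of DSS (dextran sodium sulfate, which injures the colon lining). The labels call the groups WT and CRE. The WT group was the Tmem173fl/fl AOM+DSS-L group (3 tumors), in which Tmem173, the gene of the DNA-signalling adaptor STING, is flanked by loxP sites. The CRE group was the Tmem173iΔmye AOM+DSS-L group (3 tumors), Tmem173fl/fl Lyz2-Cre-ert2 mice in which tamoxifen (TAM) activates a Cre recombinase driven by the myeloid gene Lyz2. Both groups carried the floxed alleles and both received AOM, DSS and, after tumor formation, TAM, so the groups differed by the Cre. RNA came from whole tumors, and the deletion is limited to Lyz2-expressing cells, macrophages and neutrophils above all. The age of these mice is not given in the sources used here.

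Cells hold zinc, iron and copper within narrow limits because free metal is toxic and too little stops metal-dependent enzymes. ZIP transporters bring zinc into the cytosol and ZnT transporters carry it out, into vesicles or out of the cell. Metallothioneins bind zinc and copper in the cytosol, and their transcription is driven by MTF-1, which senses zinc and binds metal response elements in promoters. Iron enters through the transferrin receptor (Tfrc) or DMT1 (Slc11a2), is stored in ferritin (Fth1 and Ftl1) and leaves through ferroportin (Slc40a1). Iron-regulatory proteins bind hairpins called iron-responsive elements, blocking translation when the hairpin lies in a 5′ UTR and stabilizing the mRNA when it lies in a 3′ UTR. In the inflamed gut, macrophages recycle iron from red cells, and withholding zinc and iron from bacteria is part of innate defence.

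The promoters of Mt1, Mt2 and Slc30a1, the textbook MTF-1 targets among the 43 genes, are shown because they carry the element that reads zinc. The core of the metal response element was searched as TGCACNC or TGCGCNC on both strands, overlapping matches included, in the 300 bases from 250 before to 50 after the RefSeq start (GRCm38.p6). Capitals mark these cores, and a core on the opposite strand reads GNGTGCA or GNGCGCA. The sequences are 5′ to 3′ on the plus strand, at chr8:94178839-94179138 for Mt1, chr8:94172368-94172667 for Mt2 and chr1:191906531-191906830 for Slc30a1.
Mt1: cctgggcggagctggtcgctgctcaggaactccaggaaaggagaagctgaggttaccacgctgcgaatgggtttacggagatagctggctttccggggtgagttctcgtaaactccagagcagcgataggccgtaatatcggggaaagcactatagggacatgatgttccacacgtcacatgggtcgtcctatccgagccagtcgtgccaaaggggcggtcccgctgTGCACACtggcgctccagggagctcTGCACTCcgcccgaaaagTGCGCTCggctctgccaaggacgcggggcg
Mt2: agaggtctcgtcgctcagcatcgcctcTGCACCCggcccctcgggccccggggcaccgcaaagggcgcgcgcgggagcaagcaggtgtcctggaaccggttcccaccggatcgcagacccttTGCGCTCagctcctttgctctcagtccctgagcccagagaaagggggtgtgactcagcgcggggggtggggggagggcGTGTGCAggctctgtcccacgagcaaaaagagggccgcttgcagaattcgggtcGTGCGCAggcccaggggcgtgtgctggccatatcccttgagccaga
Slc30a1: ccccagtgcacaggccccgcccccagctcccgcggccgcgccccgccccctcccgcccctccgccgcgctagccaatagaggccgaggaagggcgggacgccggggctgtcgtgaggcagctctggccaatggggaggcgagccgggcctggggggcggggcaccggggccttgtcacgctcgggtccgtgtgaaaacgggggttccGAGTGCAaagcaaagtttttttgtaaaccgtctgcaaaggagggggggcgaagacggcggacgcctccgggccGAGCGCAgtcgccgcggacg

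Mt2 held 4 cores, Mt1 held 3 and Slc30a1 held 2. Of 27025 promoters of this length, 1 per gene, 25.6% held at least 1 core, 7.11% at least 2, and 540 promoters at least 3. Promoters were given for 35 of the 43 genes, and 16 of these (45.7%) held at least 1 core at the first listed start. The other genes with 3 cores were Slc30a4 and Slc30a10. Slc30a2, Atp7a and Tfrc held 2 cores, Slc39a13, Slc39a5 and Atp7b held 1, and Slc39a8, Cp and Fth1 held 0 at their first listed start. A match is a match of letters and not a measured binding site, and its lack says only that these letters are not in this window.

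The iron-responsive elements of the iron genes are shown because the same hairpin sits at opposite ends of mRNAs for iron storage and export and for iron uptake. The pattern searched in the annotated UTRs (GRCm38) was a C, 5 bases, the loop CAGTGN with any base but G at the end, and 5 bases that pair with the first 5, with G-T pairs allowed. Capitals mark the C and the loop, and 5 bases are shown on either side of the hairpin. Among 21901 protein-coding genes, 0.105% had such a match in a 5′ UTR and 0.457% in a 3′ UTR. Fth1 (chr19:9982733-9982759, plus strand), Ftl1 (chr7:45459780-45459806, minus strand) and Slc40a1 (chr1:45925466-45925492, minus strand) each had 1 in the 5′ UTR, and Tfrc (plus strand) had 4 in the 3′ UTR, at chr16:32631220-32631246, chr16:32631599-32631625, chr16:32631664-32631690 and chr16:32631711-32631737 in the order listed. They are written as DNA, 5′ to 3′ along the mRNA. A hairpin in which 1 of the 5 bases is unpaired is missed by this pattern, so the lack of a match is not the lack of an element.
Fth1: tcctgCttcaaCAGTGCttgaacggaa
Ftl1: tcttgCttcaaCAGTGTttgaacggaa
Slc40a1: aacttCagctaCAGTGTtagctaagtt
Tfrc site 1: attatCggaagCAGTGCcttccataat
Tfrc site 2: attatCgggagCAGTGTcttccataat
Tfrc site 3: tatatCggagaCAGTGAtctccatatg
Tfrc site 4: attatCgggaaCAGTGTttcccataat

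Each tumor had between 15329810 and 16533732 reads counted on genes. Levels are given as the deposited FPKM (counts divided by gene length and scaled to sequencing depth), which can be compared between genes, and tumors are compared as CPM (counts scaled to a common library size, after edgeR's TMM method). Genes whose FPKM averaged 0.5 or more over the 6 tumors were fitted together with edgeR's quasi-likelihood test, and every log2 fold change is Tmem173iΔmye over Tmem173fl/fl with its standard error (SE). The adjusted p-values come from the Benjamini-Hochberg method over all genes tested. The limits named below are an unadjusted p under 0.05 together with a log2 fold change of at least 1 in size, the limits the study used. Whole-tumor Tmem173 was 136 ± 49.8 CPM (SD, n = 3) in Tmem173fl/fl and 136 ± 10.9 CPM (SD, n = 3) in Tmem173iΔmye tumors, so it gives no check of the group labels in these libraries. Y-linked genes were read in Tmem173fl/fl replicate 1 and in Tmem173iΔmye replicates 1 and 2 and at no more than 2 counts in the other tumors, so sex was unbalanced between the groups.

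No gene reached an adjusted p under 0.05 in edgeR with Benjamini-Hochberg adjustment (0 of 16426, 0%), among them 0 of the 39 metal genes. At an unadjusted p under 0.05 edgeR called 1008 genes (6.14%) and 6 of the 39 metal genes: Slc39a8, Slc30a2, Slc30a4 and Atp7b were lower in Tmem173iΔmye tumors, against 2.90% of all genes in that direction, and Slc39a13 and Cp were higher, against 3.23%. Slc39a8 and Slc30a2, both lower, were also past the fold limit. Both limits were passed by 349 genes (2.12%), with 0.864% of all genes in the lower direction and 1.26% in the upper one, where 0 metal genes stood. DESeq2 gave 28 genes (0.170%) an adjusted p under 0.05, Slc39a8 among them as the only metal gene. In 6 of the 39 metal genes the CPM of the groups did not overlap, as in 12.5% of all genes, with 3 higher against 6.03% of all genes and 3 lower against 6.47%. The median log2 fold change was -0.02 over the 39 metal genes and -0.0042 over all genes tested, and 22 of the 39 lay below 0 against 50.6% of all genes. The median, the share below 0 and the share without overlap (15.4% against 12.5%) were thus close to those of all genes. The share at an unadjusted p under 0.05 in edgeR was 15.4% against 6.14%, and 2 to 7 metal genes held this p when a tumor was left out. This share is a description, since the set was proposed when results of this comparison were known.

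**Figure D1:**
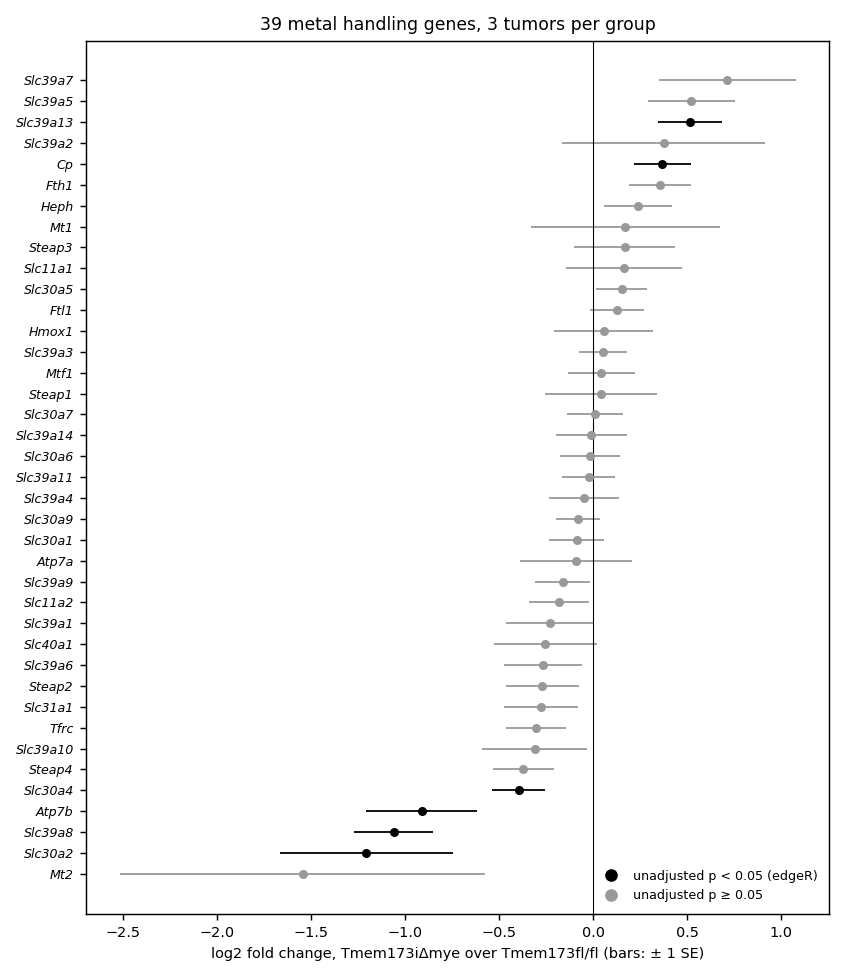
Log2 fold change (Tmem173iΔmye over Tmem173fl/fl, x axis) of the 39 metal handling genes tested, sorted, with bars of 1 SE either side from edgeR. The 6 genes in black had an unadjusted p under 0.05, and Slc39a8 and Slc30a2 were the ones of these at or beyond a log2 fold change of -1.

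Levels spanned more than 3 orders of magnitude. Fth1, the ferritin heavy chain, was the most abundant at 1265 to 1945 FPKM and stood 9th of all genes by mean FPKM. Ftl1, the ferritin light chain, followed at 355 to 448 FPKM, and Mt1 at 31.5 to 156 FPKM. Slc39a1, Slc39a4, Slc31a1 and Slc30a2 had mean values of 70.1 to 89.2 FPKM. At the other end of the genes tested stood Slc39a2, at 0.260 to 1.25 FPKM, and Atp7b, at 0.394 to 1.09 FPKM. The FPKM of Fth1 depends on the deposited gene length of 866 bases, where the annotation used here has 3469 exon bases.

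Expression of 4 genes was too low to test. Slc30a8, the zinc transporter of insulin granules, had 0 counts in all 6 tumors, a count that allows up to 3 per tumor by counting error alone. Slc39a12 had at most 2 counts, Slc30a3, the zinc transporter of synaptic vesicles, at most 5, and Slc30a10, a manganese exporter, 1 to 13 counts. The 13 counts of Slc30a10 came in Tmem173fl/fl replicate 3 and again in Tmem173iΔmye replicate 3, with no more than 3 in the other tumors. No difference was detectable at this depth in any of these genes.

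**Figure D2:**
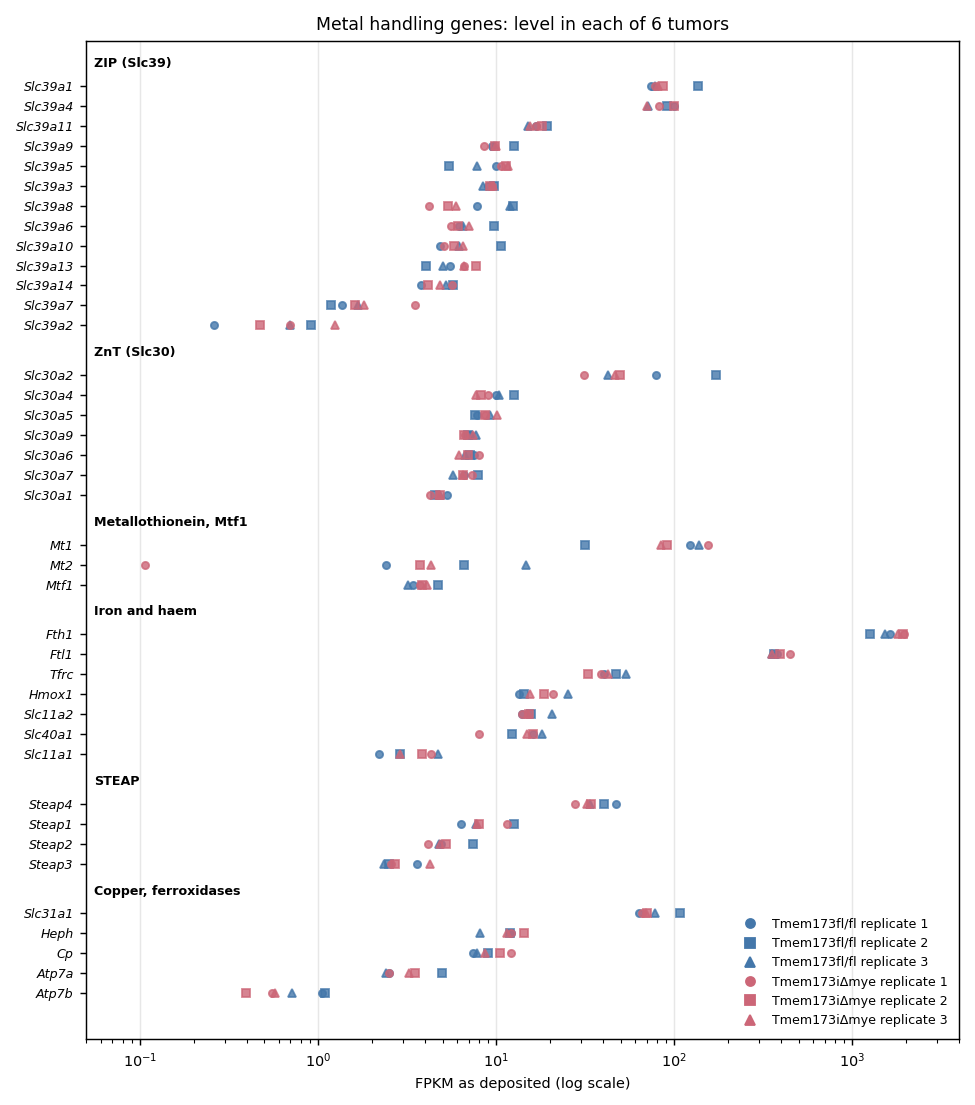
FPKM as deposited (log axis) of the 39 metal handling genes in each of the 6 tumors, grouped by role and sorted by mean. Fth1 was highest at 1265 to 1945 FPKM, and most genes spread less between tumors than Mt1, Mt2, Slc30a2 and Slc39a2.

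Among the ZIP importers, 13 of 14 were tested, with a median log2 fold change of -0.02. At an unadjusted p under 0.05 in edgeR, 1 was lower and 1 higher, against 2.90% and 3.23% of all genes. Slc39a8 (chr3:135825279-135888572, plus strand) encodes ZIP8, which carries zinc, manganese and iron across the plasma membrane. It stood at 60.9, 94.8 and 92.4 CPM in Tmem173fl/fl replicates 1, 2 and 3 and at 32.3, 41.3 and 45.5 CPM in Tmem173iΔmye replicates 1, 2 and 3. Every Tmem173iΔmye tumor was below every Tmem173fl/fl tumor. The means were 82.7 ± 18.9 CPM and 39.7 ± 6.72 CPM (SD, n = 3 each), and the difference was -1.06 on the log2 scale (SE 0.21, adjusted p = 0.742 in edgeR).

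Slc39a8 was the metal gene with the smallest unadjusted p in edgeR. This p stayed under 0.05 in all 14 alternative fits, with log2 fold changes from -1.24 to -0.88 and adjusted p-values from 0.0113 in DESeq2 to 1.0 in edgeR with Y-linked reads as a covariate. The fold limit was no longer reached without Tmem173fl/fl replicate 2 (-0.95) or 3 (-0.97), without Tmem173iΔmye replicate 1 (-0.93), with that covariate (-0.88) and with limma on log2(FPKM + 1) (-0.92). In whole tumors, fewer cells of a type and less RNA per cell cannot be told apart. Of 8 erythroid markers, 5 were tested, with a median log2 fold change of -2.04. At an unadjusted p under 0.05, where 2.90% of all genes were lower in the Tmem173iΔmye group, so were 4 of these markers. Their summed level was 10.1, 67.2 and 156 CPM in Tmem173fl/fl replicates 1, 2 and 3. In Tmem173iΔmye replicates 1, 2 and 3 it was 22.1, 8.41 and 19.6 CPM. Tmem173fl/fl replicates 2 and 3 also had most Slc39a8. Tmem173iΔmye replicate 1 was the highest of its group in these markers and the lowest in Slc39a8. Tmem173fl/fl replicate 1 lay within the Tmem173iΔmye range of the markers and above that of Slc39a8. The part of erythroid cells in the Slc39a8 difference was not tested.

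Slc39a13 (chr2:91061791-91070417, minus strand) encodes ZIP13, a zinc transporter of intracellular vesicles needed for connective tissue. It had 27.1, 19.7 and 24.6 CPM in the Tmem173fl/fl tumors and 32.1, 37.5 and 32.4 CPM in the Tmem173iΔmye tumors, in replicate order. The groups did not overlap, and the lowest Tmem173iΔmye tumor was above the highest Tmem173fl/fl tumor. The log2 fold change was 0.51 (SE 0.17, adjusted p = 0.742 in edgeR). Without Tmem173iΔmye replicate 2 it was 0.44 with an unadjusted p over 0.05, and that p was under 0.05 in the other 13 of 14 alternatives. The fibroblast markers Dpt and Dcn were at 9.58 ± 1.54 and 238 ± 44.4 CPM in Tmem173fl/fl and 20.3 ± 2.99 and 297 ± 37.8 CPM in Tmem173iΔmye tumors (SD, n = 3), while the summed level of all 8 fibroblast markers overlapped, at 1779 to 2264 and 1847 to 2708 CPM. Their part in the Slc39a13 difference was not tested.

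Slc39a5 and Slc39a7 followed in the upper direction. Slc39a5 encodes ZIP5, which sits on the blood side of gut epithelial cells, and had 22.5, 12.1 and 17.5 CPM in Tmem173fl/fl and 23.7, 25.2 and 26.0 CPM in Tmem173iΔmye tumors. The groups did not overlap, by a margin of little more than 1 CPM between Tmem173fl/fl replicate 1 and Tmem173iΔmye replicate 1. Its log2 fold change was 0.52 (SE 0.23, adjusted p = 0.742 in edgeR), just outside the unadjusted limit of 0.05, and without Tmem173fl/fl replicate 1 it was 0.75 and inside it. It was 0.32 without Tmem173fl/fl replicate 2, and no tumor other than Tmem173fl/fl replicate 1 brought it inside when left out. The unadjusted p of Slc39a5 was under 0.05 in 6 of 14 alternatives, among them DESeq2, the limma fits and the replicate number as a block.

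Slc39a7 encodes ZIP7, which releases zinc from the endoplasmic reticulum. It had 3.56, 3.06 and 4.36 CPM in Tmem173fl/fl and 9.12, 4.21 and 4.69 CPM in Tmem173iΔmye tumors. Tmem173iΔmye replicate 1 stood apart, and the other tumors overlapped (log2 fold change 0.71, SE 0.36, adjusted p = 0.742 in edgeR). Without that tumor the log2 fold change was 0.28. The value is uncertain because 80.7% of its exon bases are shared with the same-strand transcript Gm20427, named here after its values were seen, which held 3 to 14 counts per tumor.

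The most abundant ZIP genes differed little between the groups. Slc39a4 encodes ZIP4, the main zinc importer of the gut, and had 71.5 to 99.4 FPKM in Tmem173fl/fl and 70.7 to 100.4 FPKM in Tmem173iΔmye tumors (log2 fold change -0.05, SE 0.19). Slc39a1, a broadly expressed plasma membrane importer, had 73.9 to 137 and 77.6 to 87.0 FPKM, the highest value standing alone in Tmem173fl/fl replicate 2 (log2 fold change -0.23, SE 0.23). Slc39a14, which imports zinc and iron that is not bound to transferrin and is a close relative of Slc39a8, had a log2 fold change of -0.0088 (SE 0.19). Slc39a3, Slc39a9 and Slc39a11 had log2 fold changes of 0.05, -0.16 and -0.02, Slc39a6 and Slc39a10 of -0.27 and -0.31, and the low Slc39a2 of 0.38 with an SE of 0.54. None of these 9 genes had a p under 0.05 in edgeR.

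Among the ZnT exporters, 7 of 10 were tested, with a median log2 fold change of -0.08. At an unadjusted p under 0.05 in edgeR, 2 were lower, against 2.90% of all genes. Slc30a2 (chr4:134343181-134354484, plus strand) encodes ZnT2, which loads zinc into secretory vesicles of gland cells and of Paneth cells. It had 285, 610.1 and 152 CPM in Tmem173fl/fl replicates 1, 2 and 3 and 111, 178 and 165 CPM in Tmem173iΔmye replicates 1, 2 and 3. The groups overlapped, since Tmem173fl/fl replicate 3 was below 2 of the Tmem173iΔmye tumors, and the high mean of Tmem173fl/fl rested on replicate 2. The means were 349 ± 236 CPM and 151 ± 35.3 CPM (SD, n = 3 each), and the difference was -1.21 on the log2 scale (SE 0.46, adjusted p = 0.742 in edgeR).

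Without Tmem173fl/fl replicate 2 the log2 fold change of Slc30a2 was -0.53 with an unadjusted p over 0.05. That p was also over 0.05 without Tmem173iΔmye replicate 1 (-1.02) or replicate 3 (-1.27) and with Y-linked reads as a covariate (-1.09). It was under 0.05 in 8 of 14 alternatives, and the adjusted p-values over all 14 ran from 0.348 to 1.0. Slc30a2 is also a gene of pancreatic acinar cells, and of 8 acinar markers all but Cela1 were under the limit for testing. Proliferation markers summed to 750, 1324 and 707 CPM in Tmem173fl/fl replicates 1, 2 and 3. In Tmem173iΔmye replicates 1, 2 and 3 they summed to 1142, 807 and 846 CPM. Tmem173fl/fl replicate 2 was thus highest in both these markers and Slc30a2. Tmem173iΔmye replicate 1, the highest of its group in these markers, had the least Slc30a2. The part of these markers in the Slc30a2 levels was not tested.

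Slc30a4 (chr2:122681233-122702663, minus strand) encodes ZnT4, which moves zinc into endosomes and secretory vesicles. It had 55.1, 68.9 and 56.9 CPM in Tmem173fl/fl and 49.6, 45.4 and 42.6 CPM in Tmem173iΔmye tumors. The groups did not overlap, and the log2 fold change was -0.40 (SE 0.14, adjusted p = 0.742 in edgeR). Its unadjusted p was over 0.05 without Tmem173fl/fl replicate 2 (-0.29), without Tmem173iΔmye replicate 2 (-0.39) and without Tmem173iΔmye replicate 3 (-0.34).

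The other ZnT genes stood close together in all tumors. Slc30a1 encodes ZnT1, the plasma membrane zinc exporter, and had 4.27 to 5.29 FPKM over the 6 tumors (log2 fold change -0.09, SE 0.15). Slc30a5 and Slc30a6, partners that supply zinc to enzymes of the secretory pathway, had log2 fold changes of 0.15 (SE 0.14) and -0.02 (SE 0.16). Slc30a9, a mitochondrial zinc exporter, had 6.57 to 7.72 FPKM (log2 fold change -0.08, SE 0.12), with a highest CPM 1.17 times the lowest. Slc30a7, which loads the Golgi, had a log2 fold change of 0.011 (SE 0.15), with 16% of its exon bases under antisense pseudogenes.

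**Figure D3:**
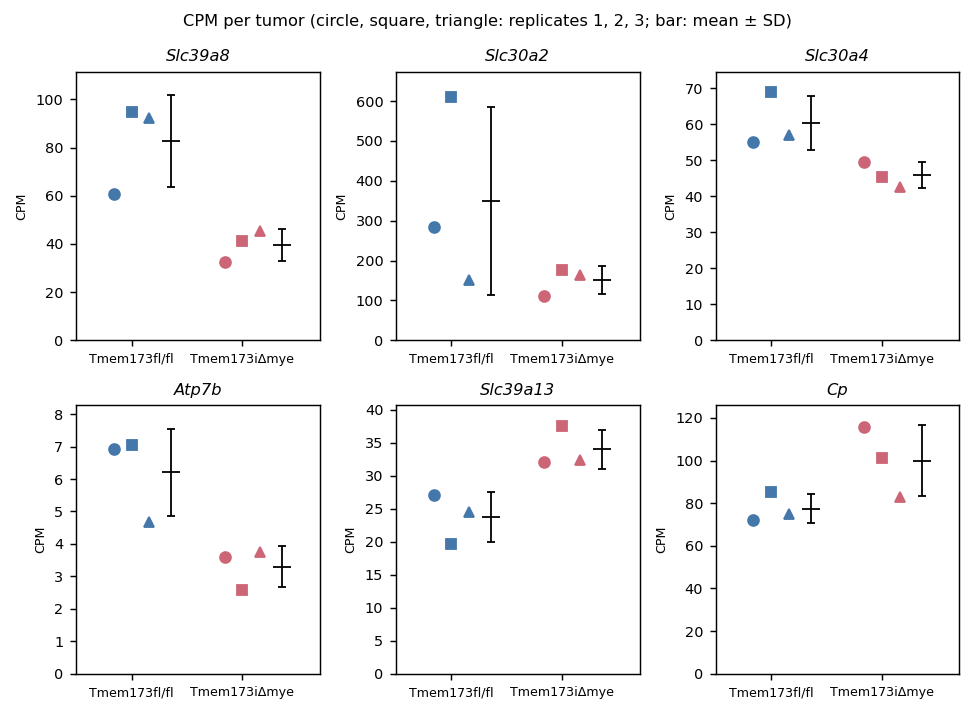
CPM in each tumor (y axes from 0) of the 6 metal handling genes with an unadjusted p under 0.05 in edgeR, with circles, squares and triangles for replicates 1, 2 and 3 and bars for the mean ± SD of 3 tumors. Slc39a8, Slc30a4, Atp7b and Slc39a13 do not overlap between the groups, and Slc30a2 and Cp do.

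Mt1 and Mt2, whose promoters are printed above, lie side by side on chromosome 8 and differed in their order over the tumors. Mt1 (chr8:94179082-94180327, plus strand) had 2397, 588 and 2878 counts in Tmem173fl/fl and 3083, 1811 and 1660 counts in Tmem173iΔmye tumors. The lowest tumor was Tmem173fl/fl replicate 2 and the highest Tmem173iΔmye replicate 1, and the groups overlapped (122 ± 72.4 and 138 ± 48.9 CPM, SD, n = 3 each). The log2 fold change was 0.17 (SE 0.50, adjusted p = 0.940 in edgeR), and it was below 0 without Tmem173fl/fl replicate 2 (-0.25), without Tmem173iΔmye replicate 1 (-0.16) and with Y-linked reads as a covariate (-0.0092).

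Mt2 (chr8:94172664-94173568, plus strand) had 22, 58 and 146 counts in Tmem173fl/fl and 1, 35 and 40 counts in Tmem173iΔmye tumors. Tmem173iΔmye replicate 1, the tumor with most Mt1, had a single Mt2 count, and the groups overlapped. The log2 fold change of -1.54 had the largest SE of the 39 genes (0.97) and an adjusted p of 0.752 in edgeR. It was -0.99 without Tmem173iΔmye replicate 1 and -0.71 without Tmem173fl/fl replicate 3. Mt1 exceeded Mt2 by FPKM ratios of 51.4, 4.78 and 9.30 in Tmem173fl/fl and 1455, 24.4 and 19.6 in Tmem173iΔmye tumors, the ratio of 1455 resting on 1 count. The Mt2 value is uncertain, since 73.5% of its exon bases lie opposite the antisense gene Gm45774, named after its values were seen, which held 2 to 14 counts per tumor. The ratios of Mt1 to Mt2 share this limit, and whether the overlap lowered the Mt2 counts was not tested.

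The metallothionein neighbours Mt3 and Mt4 were added after their values were seen. Mt3, known from the brain, had 1627, 410 and 943 counts in Tmem173fl/fl and 1430, 1855 and 1350 counts in Tmem173iΔmye tumors, and Mt4, known from stratified epithelia, had 873, 217 and 554 against 878, 1285 and 714 counts. Both exceeded the counted Mt2 in every tumor, a comparison that shares the uncertainty of the Mt2 counts. In both, Tmem173fl/fl replicate 2 was lowest and the groups overlapped. Their FPKM ratio, Mt3 over Mt4, stayed between 0.539 and 0.706. The log2 fold changes were 0.63 (SE 0.42) for Mt3 and 0.80 (SE 0.45) for Mt4. Mtf1, the zinc sensor itself, had 3.18 to 4.74 FPKM over the 6 tumors (log2 fold change 0.04, SE 0.18).

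**Figure D4:**
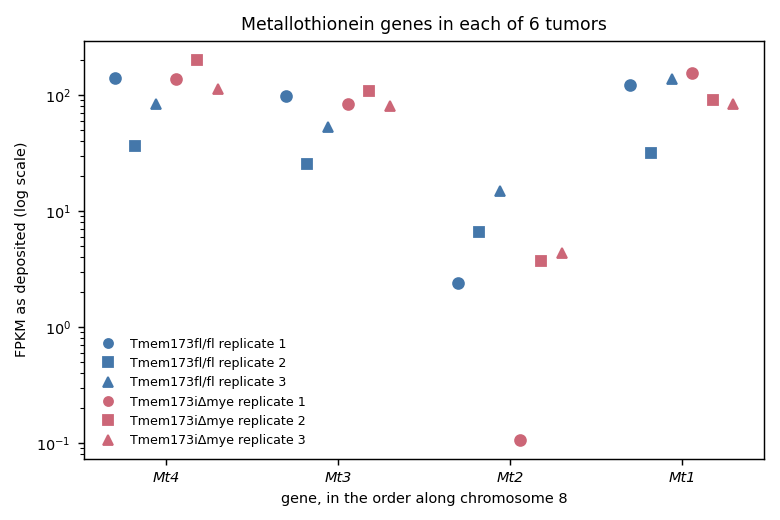
FPKM as deposited (log axis) of 4 metallothionein genes in their order along chromosome 8, in each of the 6 tumors. Mt4, Mt3 and Mt1 were lowest in Tmem173fl/fl replicate 2, and Mt2 had its lowest value, 0.107 FPKM from 1 count, in Tmem173iΔmye replicate 1.

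All 7 iron and haem genes were tested, with a median log2 fold change of 0.06. Of these 7, 0 had a p under 0.05 in edgeR, against 6.14% of all genes. Fth1 had 1430, 1088 and 1332 CPM in Tmem173fl/fl and 1682, 1686 and 1563 CPM in Tmem173iΔmye tumors. The groups did not overlap, with means of 1283 ± 176 and 1644 ± 69.8 CPM (SD, n = 3 each). The log2 fold change was 0.36 (SE 0.17, adjusted p = 0.742 in edgeR), with an unadjusted p over 0.05 in edgeR and under 0.05 in DESeq2 (adjusted p = 0.608, with 0.493 to 1.0 over the alternatives).

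Ftl1, its light-chain partner, had 510.1, 483 and 477 CPM in Tmem173fl/fl and 600, 529 and 478 CPM in Tmem173iΔmye tumors. The groups overlapped (log2 fold change 0.13, SE 0.14, adjusted p = 0.831 in edgeR), with 0.036 without Tmem173iΔmye replicate 1 and 0.20 without Tmem173iΔmye replicate 3. The Fth1 to Ftl1 FPKM ratio was 4.34, 3.49 and 4.32 in Tmem173fl/fl and 4.34, 4.93 and 5.07 in Tmem173iΔmye tumors. Ftl1 is uncertain to the extent that 34.6% of its exon bases lie under Gm10252 and Gm22133 and that the near-copy Ftl1-ps1, named after its values were seen, held 95 to 194 counts.

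Tfrc, the transferrin receptor, had 252, 288 and 331 CPM in Tmem173fl/fl and 240, 204 and 263 CPM in Tmem173iΔmye tumors. The groups overlapped by Tmem173iΔmye replicate 3 alone (log2 fold change -0.30, SE 0.16, adjusted p = 0.742 in edgeR). Without Tmem173fl/fl replicate 3, the highest tumor, it was -0.19. The FPKM ratio of Fth1 to Tfrc was 40.4, 27.0 and 28.8 in Tmem173fl/fl and 50.2, 59.1 and 42.4 in Tmem173iΔmye tumors. It did not overlap between the groups, and it was chosen after the values were seen and was not tested. It sets a gene with a log2 fold change above 0 over a gene with one below 0. It therefore restates these 2 differences and does not measure the action of the hairpins.

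Slc40a1, ferroportin, the iron exporter of enterocytes and macrophages, had 147, 109.7 and 163 CPM in Tmem173fl/fl and 71.9, 146 and 135 CPM in Tmem173iΔmye tumors. Tmem173iΔmye replicate 1 was lowest and the groups overlapped (log2 fold change -0.25, SE 0.27, adjusted p = 0.823 in edgeR). Without that tumor the log2 fold change was -0.0028, and it was -0.12 without Tmem173fl/fl replicate 3 and -0.44 without Tmem173iΔmye replicate 2.

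Slc11a1 encodes NRAMP1, which removes iron and manganese from the phagosomes of macrophages and neutrophils. It had 8.29, 10.6 and 17.6 CPM in Tmem173fl/fl and 16.0, 14.2 and 10.7 CPM in Tmem173iΔmye tumors, and the range of Tmem173iΔmye lay within that of Tmem173fl/fl (log2 fold change 0.16, SE 0.31). Hmox1, haem oxygenase, which frees iron from haem, had 23.7, 24.8 and 44.2 CPM in Tmem173fl/fl and 36.7, 32.5 and 27.3 CPM in Tmem173iΔmye tumors. Its groups overlapped too (log2 fold change 0.06, SE 0.26). Slc11a2, DMT1, which takes up ferrous iron in the gut, had 14.0 to 20.5 FPKM over the 6 tumors (log2 fold change -0.18, SE 0.16). Macrophage markers overlapped as these genes did, with a sum over 10 markers of 481 to 746 CPM in Tmem173fl/fl and 443 to 754 CPM in Tmem173iΔmye tumors.

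**Figure D5:**
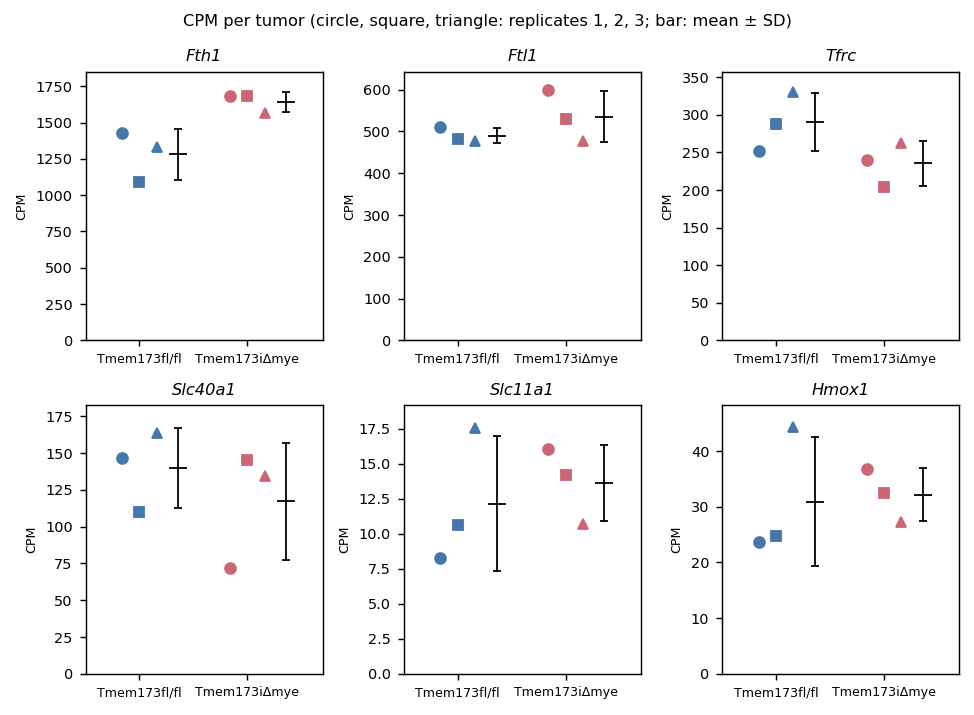
CPM in each tumor (y axes from 0) of 6 iron and haem genes, with circles, squares and triangles for replicates 1, 2 and 3 and bars for the mean ± SD of 3 tumors. Fth1 does not overlap between the groups, and Ftl1, Tfrc, Slc40a1, Slc11a1 and Hmox1 do.

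The STEAP family has 4 members, of which STEAP2, STEAP3 and STEAP4 are reductases that make ferrous iron and cuprous copper for transport, while STEAP1 lacks the domain that binds NADPH. Steap4, induced in inflammation, was the most abundant, with 151, 127 and 107 CPM in Tmem173fl/fl and 87.0, 108 and 103 CPM in Tmem173iΔmye tumors. The groups overlapped by about 1 CPM, between Tmem173fl/fl replicate 3 and Tmem173iΔmye replicate 2. The log2 fold change was -0.37 (SE 0.16, adjusted p = 0.742 in edgeR), just outside the unadjusted limit of 0.05, and without Tmem173fl/fl replicate 3 it was -0.48 and inside it. It was -0.24 without Tmem173fl/fl replicate 1 and -0.29 without Tmem173iΔmye replicate 1. The unadjusted p of Steap4 was under 0.05 in 5 of 14 alternatives, among them DESeq2 and Y-linked reads as a covariate. Steap3, the ferrireductase of transferrin endosomes, had 2.35 to 4.25 FPKM (log2 fold change 0.17, SE 0.27). Steap1 and Steap2 had log2 fold changes of 0.04 (SE 0.30) and -0.27 (SE 0.19).

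Among the 5 copper and ferroxidase genes, 1 was lower and 1 higher at an unadjusted p under 0.05, against 2.90% and 3.23% of all genes. Atp7b (chr8:21992785-22060305, minus strand) encodes the copper pump that is lost in Wilson disease and loads copper onto ceruloplasmin in the liver. It had 107, 106 and 78 counts in Tmem173fl/fl and 57, 41 and 59 counts in Tmem173iΔmye tumors, or 6.93, 7.04 and 4.66 against 3.58, 2.57 and 3.74 CPM. The groups did not overlap (log2 fold change -0.91, SE 0.30, adjusted p = 0.742 in edgeR). Without Tmem173iΔmye replicate 2 it was -0.76 with an unadjusted p over 0.05, and that p was under 0.05 in 10 of the 13 alternatives that tested it. It was past both limits without Tmem173fl/fl replicate 3 (-1.07, where Slc39a8 was not) and without Tmem173iΔmye replicate 3 (-1.01, where Slc30a2 was not). On log2(FPKM + 1) the difference was -0.37, with a pseudocount of 1 that is about the level of this gene.

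Cp (chr3:19957054-20009145, plus strand) encodes ceruloplasmin, the copper-bearing ferroxidase that helps ferroportin release iron. It had 72.1, 85.2 and 74.9 CPM in Tmem173fl/fl and 116, 101 and 82.9 CPM in Tmem173iΔmye tumors. The groups overlapped, with Tmem173fl/fl replicate 2 above Tmem173iΔmye replicate 3. The log2 fold change was 0.37 (SE 0.15, adjusted p = 0.742 in edgeR), and the unadjusted p was under 0.05 in 6 of 14 alternatives. That p was over 0.05 without Tmem173fl/fl replicate 1 (0.32) or 3 (0.35) and without Tmem173iΔmye replicate 1 (0.25) or 2 (0.36).

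Heph, hephaestin, the ferroxidase of gut epithelium, had 93.6, 91.6 and 62.5 CPM in Tmem173fl/fl and 92.5, 111 and 88.9 CPM in Tmem173iΔmye tumors. The groups overlapped (log2 fold change 0.24, SE 0.18, adjusted p = 0.767 in edgeR), and the lowest tumor was Tmem173fl/fl replicate 3. This value was 0.077 without that tumor and 0.14 without Tmem173iΔmye replicate 2, the highest. Slc31a1 encodes CTR1, the copper importer, and had 63.2 to 108 FPKM in Tmem173fl/fl and 66.2 to 70.3 FPKM in Tmem173iΔmye tumors (log2 fold change -0.28, SE 0.20). Atp7a, the pump that exports copper from enterocytes, had 2.42 to 4.97 and 2.51 to 3.51 FPKM (log2 fold change -0.09, SE 0.30). Tmem173fl/fl replicate 2 was the highest tumor for both.

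Tmem173fl/fl replicate 2 was the highest in 17 of the 39 metal genes (43.6%), against 26.6% of all genes tested, and the lowest in 6 (15.4%), against 27.1%. Tmem173iΔmye replicate 1 was the lowest in 10 of the 39 (25.6%), against 23.5% of all genes. The SD over the 6 tumors was 21.1% of the mean CPM at the median of the metal genes and 20.2% at the median of all genes tested. The ratio of the highest to the lowest CPM ran from 1.15 for Slc39a3 to 139 for Mt2, with 5.49 for Slc30a2 and 4.97 for Mt1.

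Other genes of the same pathways were taken from lists. Of 19 further genes of iron regulation, 15 were tested, with a median log2 fold change of 0.13. At an unadjusted p under 0.05, where 3.23% of all genes were higher and 2.90% lower, 0 of the 15 were lower and 2 were higher. These were Trf, transferrin, with 115, 67 and 68 counts in Tmem173fl/fl and 645, 119 and 116 counts in Tmem173iΔmye tumors (log2 fold change 1.79, SE 0.69, adjusted p = 0.742 in edgeR), where Tmem173iΔmye replicate 1 stood far above the rest, and Slc25a37, mitoferrin, which brings iron into mitochondria (log2 fold change 0.38, SE 0.15). Of 12 further haem genes, 9 were tested and 1 was higher at an unadjusted p under 0.05, against 3.23% of all genes. The haem gene was Blvrb, biliverdin reductase, without overlap between the groups. It had 49.6 ± 8.64 CPM in Tmem173fl/fl and 76.1 ± 13.5 CPM in Tmem173iΔmye tumors (SD, n = 3 each, log2 fold change 0.62, SE 0.18, adjusted p = 0.742 in edgeR).

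Of 10 further copper genes, 9 were tested, 0 passed in edgeR and 8 lay above 0, with a median log2 fold change of 0.30. Their summed level was 389, 249 and 363 CPM in Tmem173fl/fl and 547, 385 and 365 CPM in Tmem173iΔmye tumors, so Tmem173iΔmye replicate 1 was high, Tmem173fl/fl replicate 2 was low and the groups overlapped. Atox1, the copper chaperone that delivers to Atp7a and Atp7b, had the lowest p of these (log2 fold change 0.64, SE 0.31, adjusted p = 0.742 in edgeR). None of 4 metal-withholding genes of neutrophils and epithelium had a p under 0.05. S100a8 and S100a9, which bind zinc as calprotectin, were highest in Tmem173iΔmye replicate 1 (1861 and 2181 counts), and Ltf, lactoferrin, was highest in Tmem173fl/fl replicate 2 (2611 counts). Of 10 targets of Nrf2, the regulator that also drives Fth1, Ftl1 and Hmox1, 0 passed in edgeR, with a median log2 fold change of 0.11.

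The tumors carried the markers of their tissue, with a sum over 8 epithelial markers of 11957 to 13128 CPM in Tmem173fl/fl and 12654 to 14470 CPM in Tmem173iΔmye tumors. Of these markers 7 had log2 fold changes above 0, and Vil1, at 465 ± 38.3 and 593 ± 67.0 CPM (SD, n = 3 each), did not overlap and had an unadjusted p under 0.05. Neutrophil markers summed to 70.8 to 215 CPM in Tmem173fl/fl and 117 to 395 CPM in Tmem173iΔmye tumors, and markers of mature colonocytes to 389 to 1174 and 650.1 to 949 CPM, each overlapping. Of 7 neutrophil markers tested, 6 lay above 0, with a median log2 fold change of 0.64. Of 8 mature colonocyte markers, 6 lay below 0, with a median of -0.66. In both lists 0 markers had an unadjusted p under 0.05 in edgeR. Muscle markers summed to 286 to 409 CPM in Tmem173fl/fl and 208 to 367 CPM in Tmem173iΔmye tumors, with log2 fold changes below 0 in 5 of 6 and an unadjusted p under 0.05 for Des alone (-1.01, SE 0.39). Their part in the metal gene differences was not tested.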

How the data were processed

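RNA-seq was performed on 6 AOM/DSS colon tumors, 3 Tmem173fl/fl and 3 Tmem173iΔmye. Total RNA was isolated with TRIzol and libraries were made with the NEBNext Ultra RNA kit. Per the submitters' processing notes, CASAVA 1.8, fastp, HISAT2 2.0.5, featureCounts 1.5.0-p3 and DESeq2 1.20.0 were used with GRCm38. For each gene the authors deposited the raw read count and an FPKM value. The deposited FPKM equals the count over gene length, over a median-of-ratios size factor and over the libraries' geometric mean total, within a relative difference of 5.0e-07. Columns of the authors' own comparison (fold changes and p-values) were not used. Whether counting used strand is not given in the sources used here.

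For the 16426 genes whose FPKM averaged 0.5 or more, counts were fitted in edgeR 4.0.16 (R 4.3.3) with TMM scaling and group alone, using the quasi-likelihood test, and p-values were adjusted by Benjamini-Hochberg over this whole table. SE was taken as the log2 fold change, without sign, over the root of F. The members and lists were chosen with earlier results of these data known, so no set test was run. All 43 members were named, with values in every tumor for those with an unadjusted p under 0.05, for the 6 with the lowest p in each direction and for 9 key metallothionein and iron genes, and of other lists up to 3 genes with the lowest p. The labels number the tumors without saying that each came from another mouse. By the Y-linked reads each group held tumors of both sexes, so no group came from a single mouse. Whether all tumors of a group came from different mice is not given. The p-values measure the spread between these samples, which may in part be technical. Totals of 15329810 to 16533732 counts leave genes with 3 counts or fewer without a usable fold change, a floor for counting error alone.

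Alternatives were median-of-ratios scaling, no filter, a filter at a mean FPKM of 1, DESeq2 1.42.0, limma 3.58.1 on log2(FPKM + 1) and on log2(FPKM + 0.1), the replicate number as a block, Y-linked reads as a covariate and leaving out each tumor. For the covariate each tumor was classed as with or without Y-linked expression, so it stands for sex and not for a read count. Scripts were tested on simulated counts. Promoter windows came from RefSeq and UTRs and exon overlaps from GENCODE M21 gene models, both on GRCm38, read with Python 3.11.15.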

Additional observations from a re-analysis of the deposited data

How the results depend on the processing

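Over the 19 genes described tumor by tumor and 14 alternatives, 222 of 265 values kept their direction and their side of the unadjusted limit of 0.05, 21 lost it, 13 gained it and 9 turned direction. The count of all genes past both limits was 349 and became 872 without a filter, 136 with limma on log2(FPKM + 1), 211 with Y-linked reads as a covariate and 218 to 636 when a tumor was left out, the lowest without Tmem173fl/fl replicate 3 and the highest without Tmem173fl/fl replicate 1. The count at an adjusted p under 0.05 was 0 in edgeR and became 6 without a filter, 28 in DESeq2 and 0 to 1 without a tumor. Of the metal genes, 2 passed both limits, against 0 with limma on log2(FPKM + 1), 1 with limma on log2(FPKM + 0.1), 0 with Y-linked reads as a covariate and 0 to 2 without a tumor, with 0 when Tmem173fl/fl replicate 2 or Tmem173iΔmye replicate 1 was absent, and with Atp7b as 1 of the 2 without Tmem173fl/fl replicate 3 or Tmem173iΔmye replicate 3. Metal genes at p under 0.05 numbered 2 to 7 without a tumor, the lowest without Tmem173iΔmye replicate 2, and their median log2 fold change ran from -0.089 to 0.066, above 0 without Tmem173fl/fl replicate 2 alone. Direction turned for Mt1 with Y-linked reads as a covariate (-0.0092), without Tmem173fl/fl replicate 2 (-0.25) and without Tmem173iΔmye replicate 1 (-0.16), with 0.51 without Tmem173fl/fl replicate 3, for Hmox1 without Tmem173fl/fl replicate 1 (-0.10) or 2 (-0.08) and without Tmem173iΔmye replicate 1 (-0.05), with 0.41 without Tmem173fl/fl replicate 3, for Mtf1 without Tmem173fl/fl replicate 1 (-0.020) or 3 (-0.063), ranging up to 0.23 without Tmem173fl/fl replicate 2, and for Slc11a1 without Tmem173fl/fl replicate 1 (-0.050), against 0.53 without Tmem173fl/fl replicate 3. The cause of these changes was not tested.

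Whether tumors with the same replicate number share a litter or a day is not given in the sources used here. The correlations of their deviations from the group means were 0.27, 0.00022 and 0.14 for replicates 1, 2 and 3. Their mean was 0.137, against -0.0683 for tumors with different numbers. The pair of replicates 1 had the highest value of all pairs, while Tmem173fl/fl replicate 2 correlated best with Tmem173iΔmye replicate 3. With the replicate number as a block, edgeR gave 377 genes past both limits, 0 at an adjusted p under 0.05, and 3 metal genes past both limits, Slc39a8, Slc30a2 and Mt2 (log2 fold change -1.79). Few counts limit Mt2, Atp7b, Slc39a2 and Slc39a7 among the genes tested. For Mt2 and Slc39a7 the exon overlaps given above may also affect the counts, which was not tested.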
